A study of Homo sapiens with 2 samples.

Results

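The DNA replication origin and fork genes are 47 genes for origin licensing, the replicative helicase, the replicative polymerases, the sliding clamp and fork protection. They were taken by gene symbol, without the clamp loader subunits, from the 19225 rows of the deposited tables, and all 47 were found. The data came from mRNA sequencing of polyA RNA from cells labelled A549, an established human lung adenocarcinoma line of non-small-cell lung cancer. However, most of the marker genes looked at go against that label in both libraries, as given below. The A549-NICD1 cells overexpressed the NOTCH1 intracellular domain (NICD1), which acts in the nucleus once the receptor is cleaved, and A549-Vector was their vector control, called the control here. With 1 library in each group, the differences have no replicate check, and p-values are not given.

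In every dividing cell, DNA replication starts at origins that are marked by the origin recognition complex. CDC6 and CDT1 then load the MCM2-7 helicase on these origins while the cell is in G1, and geminin, the product of GMNN, holds CDT1 back afterwards so that each origin fires only once per cycle. At the start of S phase CDC45 and the GINS complex turn MCM2-7 into the active helicase, and polymerases alpha, delta and epsilon copy the opened strands with the clamp PCNA. Many of these genes are known targets of the E2F transcription factors, which act in late G1 and S phase.

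The deposited values are expression per gene length and sequencing depth (FPKM), as far as the values themselves show. The depth read from the values was 48528434 reads with NICD1 and 48602848 reads in the control. NOTCH1 was at 5.40 FPKM in the control and 2865 FPKM with NICD1, as the labels of the libraries say. The A549 marker list holds 12 genes, of which 9 were under 1 FPKM in both libraries, and KRT7, KRT19, FGA and FGB were listed at 0 in both. By contrast, ANXA1 was at 11.1 FPKM in the control and 11.4 FPKM with NICD1, and ALDH3A1 at 1.45 and 2.01 FPKM. The summed level of the 12 was 14.1 FPKM in the control and 14.2 FPKM with NICD1, most of it from ANXA1. The marker list of HEK293, a line from embryonic kidney, holds 8 genes, all with 1 FPKM or more in each library, and their summed level was 347 FPKM in the control and 317 FPKM with NICD1. At least 1 FPKM in either library was reached by 12449 of the 19198 genes used. Both marker lists were written with earlier results of these data known, so the counts describe the libraries and are not a test. Most of the listed markers go against the A549 label in both libraries. The names A549-NICD1 and A549-Vector are kept here only as labels. The part of cell identity in the results below was not tested.

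To show what the replication genes share in sequence, the promoter windows of RefSeq (GRCh38.p14) were searched for the letters of known motifs. Each window runs from 250 bases before to 50 bases after the start of the gene. A window was matched by symbol for 40 of the 47 genes, and none was matched for MCM4, MCM5, GINS4, POLD3, RPA2, RPA3 and DNA2. The E2F motif was searched as TTTCCCGC, TTTCGCGC, TTTGCCGC and TTTGGCGC on both strands. Only these exact letters were counted, and close variants of them were not. It occurred in 19 of the 40 windows (47.5%), against 5.44% of the 9786 windows of genes tested here and 3.33% of all 27305 windows. The median GC content was 65.8% in the windows of the replication genes, 65.7% in those of the genes tested and 58.3% in all windows. Of these 19 genes, 9 are shown here as examples from licensing, the helicase, the polymerases, ligation and fork protection, with 30 bases each on the strand of the gene and every E2F match in capitals:
CDC6 (chr17:40287875-40287904, plus strand): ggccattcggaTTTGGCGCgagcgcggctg
CDT1 (chr16:88803743-88803772, plus strand): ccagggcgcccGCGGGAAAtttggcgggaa
MCM2 (chr3:127598402-127598431, plus strand): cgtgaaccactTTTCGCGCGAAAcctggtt
MCM3 (chr6:52284898-52284927, minus strand): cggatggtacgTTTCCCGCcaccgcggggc
MCM7 (chr7:100101566-100101595, minus strand): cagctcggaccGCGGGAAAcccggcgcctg
POLA1 (chrX:24693770-24693799, plus strand): gtcatcacaggGCGCCAAAcgcgcgtccgc
POLE (chr12:132687342-132687371, minus strand): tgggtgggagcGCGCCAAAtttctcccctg
LIG1 (chr19:48170440-48170469, minus strand): acttcacccctTTTCCCGCcctcctcccat
CLSPN (chr1:35769965-35769994, minus strand): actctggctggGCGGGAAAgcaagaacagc

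Among the 40 windows, the one of MCM6 held the letters 4 times, as overlapping pairs at 2 places, and that of PCNA held them once. The window of GMNN, the gene with the largest difference between the libraries, held none. Upstream stretches of these genes are shown on the strand of the gene, read 5′ to 3′, again with the E2F letters in capitals:
MCM6 (chr2:135876444-135876693, minus strand): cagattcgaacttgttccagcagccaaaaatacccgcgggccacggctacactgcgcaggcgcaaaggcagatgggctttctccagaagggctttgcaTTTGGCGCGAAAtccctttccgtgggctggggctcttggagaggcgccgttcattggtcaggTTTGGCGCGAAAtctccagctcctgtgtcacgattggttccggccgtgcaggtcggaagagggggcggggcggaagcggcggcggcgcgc
PCNA (chr20:5126623-5126772, minus strand): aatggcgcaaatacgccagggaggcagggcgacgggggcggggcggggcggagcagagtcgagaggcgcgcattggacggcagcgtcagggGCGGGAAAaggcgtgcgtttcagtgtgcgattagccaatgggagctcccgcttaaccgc
GMNN (chr6:24774687-24774930, plus strand): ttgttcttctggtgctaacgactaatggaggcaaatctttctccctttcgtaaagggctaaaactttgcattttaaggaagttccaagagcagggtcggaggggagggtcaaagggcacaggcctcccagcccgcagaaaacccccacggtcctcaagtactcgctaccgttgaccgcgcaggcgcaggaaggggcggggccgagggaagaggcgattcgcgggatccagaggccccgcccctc

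The letters TGGGAA, the core read by RBPJ, the DNA-binding partner of NICD1, occurred on either strand in 12 of the 40 windows (30%), against 21.6% of windows of genes tested and 24.3% of all windows. CDC6 held this motif, whereas CDT1 and GMNN did not. CCAAT occurred on either strand in 26 windows (65%), against 36.8% of windows of genes tested and 35.7% of all. TTTGAA, the letters of the cell-cycle element CHR, occurred in none of the 40, against 9.14% of windows of genes tested. A match of letters is a description of these windows and no binding was measured.

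All 47 genes were expressed in both libraries. Their levels ran from 7.07 FPKM (ORC4) to 186 FPKM (PCNA) in A549-Vector and from 5.71 FPKM (POLD4) to 188 FPKM (PCNA) in A549-NICD1. The median of the 47 was 32.7 FPKM in the control and 33.5 FPKM with NICD1, above the 12.6 and 12.2 FPKM of the 12449 genes with at least 1 FPKM in either library, which were the genes tested. In each library 44 of the 47 lay above that median. The gene lengths behind the deposited values are not given, so ratios of level between genes, here and below, depend on unknown lengths. The order of levels hardly differed between the libraries, with a Spearman's rho of 0.991 across the 47 genes, which share both libraries and are not replicates. PCNA was highest in both, at rank 235 of all genes in A549-Vector and rank 233 in A549-NICD1.

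**Figure D1:**
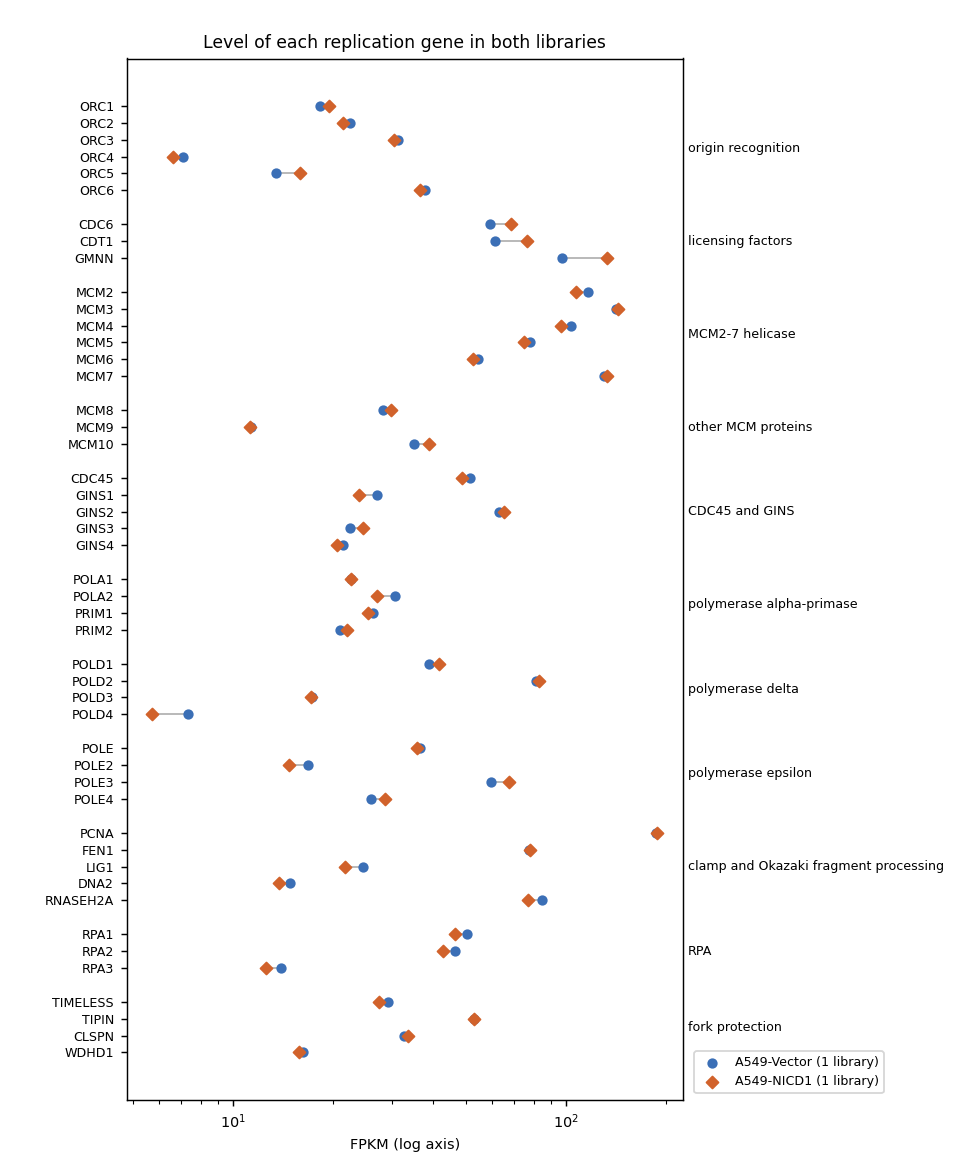
Level of each of the 47 genes in FPKM on a log axis, by role, with a circle for the A549-Vector library and a diamond for the A549-NICD1 library. Most pairs of symbols lie on or close to each other, and the widest gaps are those of GMNN, CDT1 and POLD4.

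The difference between the libraries was taken as the log2 ratio of A549-NICD1 over A549-Vector on FPKM plus 0.1, with the libraries first scaled to each other by the trimmed mean of their log ratios. Levels and sums in FPKM are given as deposited, before this scaling, so a gene with a slightly lower level can have a log2 fold change above 0. The interval given with the log2 ratio is a 95% Clopper-Pearson interval on the smallest whole reads that fit the values. It covers counting error only and holds the scaling fixed. Over the 47 genes the median log2 fold change was 0.024, beside -0.0050 over all genes tested, with 29 genes above 0 (61.7% of the 47, beside 48.9% of all genes tested) and 18 below. With no scaling the median was -0.032, with 20 genes above 0 and 27 below, so the side on which most of the genes lay depends on the scaling. Their values ran from -0.30 to 0.51, with an SD across the genes of 0.14, beside 0.33 across all genes tested. A total of 3 genes, GMNN, CDT1 and ORC5, were at least 1.2-fold higher in A549-NICD1 (6.38% of the 47, beside 9.54% of all genes tested). Only POLD4 was at least 1.2-fold lower (2.13% of the 47, beside 13.1%). None of the 47 was 1.5-fold higher or lower, beside 2.27% and 2.74% of all genes tested. Among 9131 genes with at least 5 FPKM in both libraries, as all of the 47 were, 7.04% were 1.2-fold higher, 6.97% were 1.2-fold lower, 0.909% were 1.5-fold higher and 0.537% were 1.5-fold lower. Of these, 52.2% were above 0, with a median log2 fold change of 0.0088 and an SD of 0.24. Their lower and upper quartiles were -0.10 and 0.11, beside -0.039 and 0.12 for the 47 genes. Over all genes tested the main split was 1188 genes 1.2-fold higher and 1631 lower, and it was 850 and 2162 with no scaling and 2842 and 2676 with no filter on low values.

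The counting interval lay above 0 for 18 of the 47 genes and below 0 for 8, beside 28.7% and 29.8% of all genes tested and 32.5% and 27.8% of those with at least 5 FPKM in both libraries. These counts belong to the main scaling and were not taken under the others. Across the alternatives tried, the log2 fold change of PCNA went down to 0.013 and that of MCM3 to 0.023, both below their intervals. The width of the interval had a median of 0.13 on the log2 scale over the 47 genes, and POLD4, POLE4, GINS3, TIPIN and ORC4 had the widest. How much cultures of the same kind would differ was not measured.

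**Figure D2:**
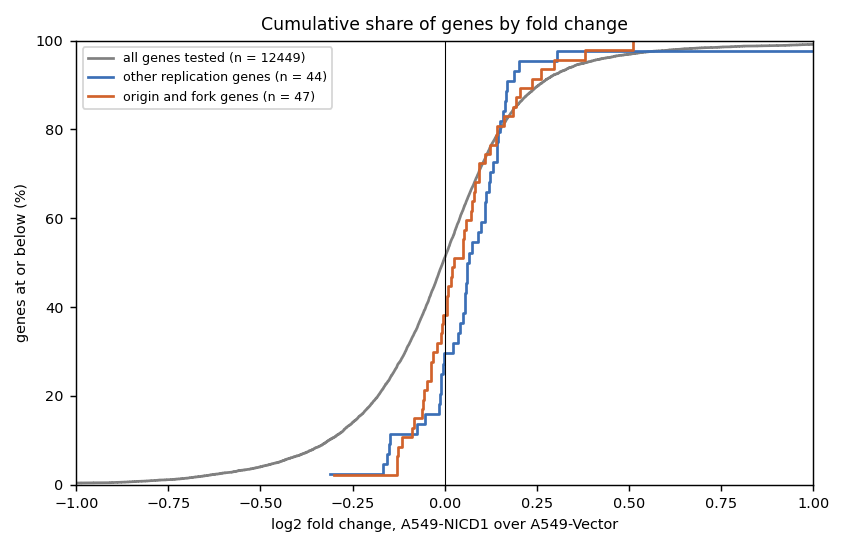
Cumulative share of genes in percent by log2 fold change of A549-NICD1 over A549-Vector, for all 12449 genes tested, the 44 other replication genes and the 47 origin and fork genes. The lines of both replication lists rise more steeply around 0 than that of all genes, and the x axis ends at 1 in either direction.

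The licensing factors stood highest of all role groups. GMNN was at 97.3 FPKM in the control and 133 FPKM with NICD1 (log2 fold change 0.51, interval 0.42 to 0.60) or 1.42-fold. CDT1 was at 61.1 and 76.5 FPKM in the same order (log2 fold change 0.38, interval 0.34 to 0.42) or 1.30-fold. CDC6, the loader that works with CDT1, was at 59.3 and 68.4 FPKM (log2 fold change 0.26, interval 0.22 to 0.30). Its ratio of 1.199 lay just under 1.2, while that of ORC5 at 1.23 lay just over it. Thus CDC6 and CDT1, which load MCM2-7, and the inhibitor of this loading were all higher in A549-NICD1. Among all genes tested, GMNN lay at percentile 97.1 of the log2 fold changes, CDT1 at percentile 94.98 and CDC6 at percentile 90.4. GMNN was 1.59 times the level of CDT1 in A549-Vector and 1.74 times in A549-NICD1. The summed level of these 3 genes was 218 FPKM in the control and 278 FPKM with NICD1. GMNN lies on chromosome 6 (GRCh38, 24774931 to 24786099, plus strand) and CDT1 on chromosome 16 (88803213 to 88809258, plus strand). Neither shares exon bases with another gene in GENCODE 29. Of the longest CDT1 transcript, 4.04% is at least 97% identical to ZNF426, and smaller shares match other genes, SQSTM1 among them.

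**Figure D3:**
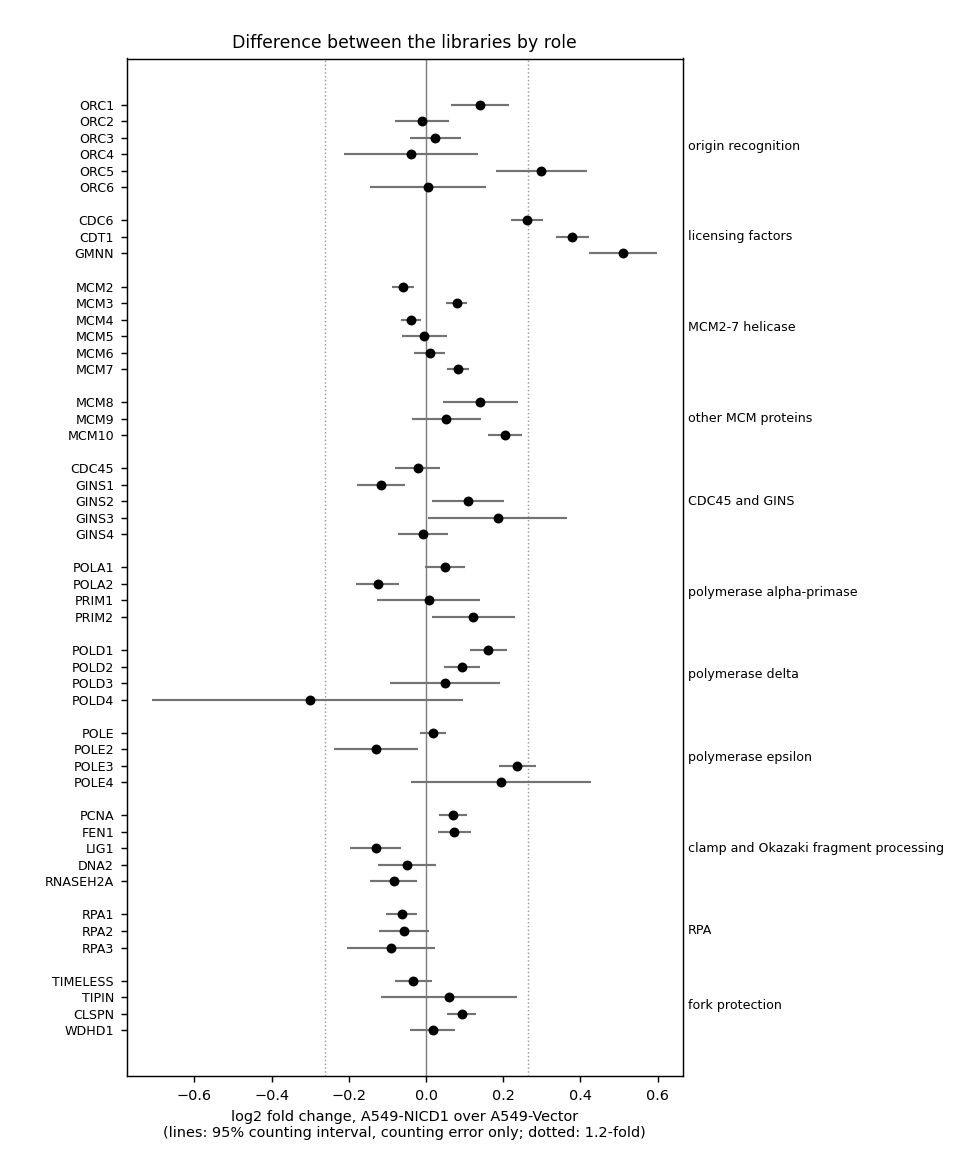
Log2 fold change of A549-NICD1 over A549-Vector for each of the 47 genes by role, with its 95% counting interval as a line and 1.2-fold as dotted lines. GMNN and CDT1 have intervals wholly beyond 1.2-fold, and the line of POLD4 is the longest, since it rests on 121 and 94 reads at the least.

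The origin recognition complex, whose subunits ORC1 to ORC5 form a ring on DNA, had a median log2 fold change of 0.015. ORC5 was at 13.5 FPKM in the control and 15.9 FPKM with NICD1 (log2 fold change 0.30, interval 0.18 to 0.42). ORC1, the subunit that is known to come and go with the cell cycle, was at 18.3 and 19.4 FPKM, with log2 fold change 0.14. The intervals of the other 4 subunits held 0. ORC2 was at 22.5 and 21.5 FPKM, ORC3 at 31.2 and 30.5 FPKM, ORC4 at 7.07 and 6.61 FPKM, and ORC6 at 37.8 and 36.5 FPKM. ORC6 was 5.35 times the level of ORC4 in A549-Vector and 5.52 times in A549-NICD1. As deposited, levels within this complex thus differed far more between subunits than any subunit did between the libraries. How much of this gap comes from the gene lengths used was not tested.

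The 6 subunits of the MCM2-7 helicase were among the highest genes of the list and differed little between the libraries, with a median log2 fold change of 0.0022. MCM3 was the highest, at 141 FPKM in the control and 143 FPKM with NICD1 (log2 fold change 0.079, interval 0.052 to 0.11). MCM7 was at 130 and 133 FPKM (0.082, interval 0.054 to 0.11). MCM2 was lower in A549-NICD1, at 116 and 107 FPKM (-0.060, interval -0.089 to -0.031). MCM4 was at 103 and 96.9 FPKM (-0.039, interval -0.065 to -0.012). The intervals of MCM5 and MCM6 held 0. MCM5 was at 78.0 and 74.7 FPKM (-0.0049, interval -0.063 to 0.054), and MCM6, the lowest subunit, at 54.4 and 52.6 FPKM (0.0093, interval -0.031 to 0.050). MCM3 was 2.60 times the level of MCM6 in A549-Vector and 2.72 times in A549-NICD1. The helicase genes thus lay closer to 0 than CDC6 and CDT1. The summed level of MCM2 to MCM7 was 624 FPKM in the control and 608 FPKM with NICD1 as deposited, with a log2 fold change of 0.019 after scaling.

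The other MCM proteins are not part of this ring. MCM10, which acts when the helicase is switched on, was at 34.9 FPKM in the control and 38.7 FPKM with NICD1, with log2 fold change 0.20 with an interval of 0.16 to 0.25. MCM8 and MCM9, which work together in homologous recombination, were at 28.2 and 29.9 FPKM and at 11.3 and 11.3 FPKM. Their log2 fold changes were 0.14 and 0.052, and the interval of MCM9 held 0.

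CDC45 and GINS, the activators of the helicase, had a median log2 fold change of -0.0072. CDC45 was at 51.4 FPKM in the control and 48.7 FPKM with NICD1. Within GINS, GINS1 was lower in A549-NICD1, at 27.0 and 24.0 FPKM (log2 fold change -0.12, interval -0.18 to -0.054). GINS2 was at 63.1 and 65.4 FPKM (0.11) and GINS3 at 22.5 and 24.6 FPKM (0.19), both with intervals above 0. GINS4 was at 21.5 and 20.5 FPKM, and its interval held 0, as did that of CDC45. The 4 GINS subunits, which form a complex of 1 copy each, thus stood on both sides of 0.

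Polymerase alpha-primase, which lays down the primers, was the most even complex. Its highest gene was 1.46 times the lowest in A549-Vector and 1.23 times in A549-NICD1. POLA1, the catalytic subunit, was at 22.7 and 22.6 FPKM, and PRIM1, the primase, at 26.4 and 25.5 FPKM, both with intervals that held 0. POLA2 was at 30.7 and 27.0 FPKM (log2 fold change -0.13, interval -0.18 to -0.070). PRIM2 was at 20.98 and 21.97 FPKM, with log2 fold change 0.12 with an interval above 0. Of the longest POLA2 transcript, 53.8% is at least 97% identical to AP000944.2, a coding gene that overlaps it, so that reads of POLA2 cannot be assigned with certainty. Of the longest PRIM2 transcript, 46.4% is at least 97% identical to the transcript AC244258.1, and the same holds for its reads. PRIM2 and POLA2 were the lowest and highest genes of this complex, so its evenness carries the same limit.

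Polymerase delta, the lagging-strand polymerase, was the least even of the polymerase complexes. POLD2 was at 81.1 FPKM in the control and 83.3 FPKM with NICD1, with log2 fold change 0.094. POLD4, the smallest subunit, was at 7.34 and 5.71 FPKM, and POLD2 was 11.05 times its level in A549-Vector and 14.6 times in A549-NICD1. POLD4 had the lowest log2 fold change of the 47 genes, at -0.30, and its interval of -0.71 to 0.095 held 0, so this difference was not larger than the counting error that the smallest reads allow. POLD1, the catalytic subunit, was at 38.8 and 41.7 FPKM (log2 fold change 0.16, interval 0.11 to 0.21). POLD3 was at 17.3 and 17.2 FPKM. POLD4 lies on chromosome 11 (GRCh38, 67350777 to 67356972, minus strand), and 43.8% of its longest transcript is at least 97% identical to AP003419.1, a coding gene that overlaps it, so that its reads cannot be assigned with certainty.

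Polymerase epsilon, the leading-strand polymerase, had members on both sides. POLE3, a histone-fold subunit that also works in chromatin remodelling, was at 59.6 FPKM in the control and 67.5 FPKM with NICD1 (log2 fold change 0.24, interval 0.19 to 0.29). POLE4, its histone-fold partner, was at 26.1 and 28.7 FPKM (log2 fold change 0.19, interval -0.038 to 0.43). POLE2 was lower, at 16.8 and 14.8 FPKM (log2 fold change -0.13, interval -0.24 to -0.022). POLE, the catalytic subunit, was at 36.6 and 35.6 FPKM, with log2 fold change 0.019 with an interval that held 0.

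PCNA, the clamp that tethers the polymerases, was at 186 FPKM in the control and 188 FPKM with NICD1 (log2 fold change 0.070, interval 0.034 to 0.11). FEN1, the flap nuclease of Okazaki fragments, was at 77.3 and 78.2 FPKM, with log2 fold change 0.074. LIG1, the ligase that seals these fragments, was lower in A549-NICD1, at 24.7 and 21.7 FPKM (log2 fold change -0.13, interval -0.20 to -0.065). RNASEH2A, which removes RNA from DNA, was also lower, at 84.7 and 76.8 FPKM, with log2 fold change -0.084. DNA2, a nuclease for long flaps, was at 14.8 and 13.8 FPKM, and its interval held 0. Of the longest RNASEH2A transcript, 40.9% is at least 97% identical to THSD8, a coding gene that overlaps it, so that its reads cannot be assigned with certainty. Exons of POLD1 and PRIM1 also overlap another coding gene by more than 5% of their bases, as do those of MCM7, with 8.94% shared with AP4M1 on the opposite strand. In GENCODE 29, FEN1 shares 6.70% of its exon bases with TMEM258 on the opposite strand, and while the sequencing is described as strand-specific, whether the counting used strand is not given in the sources used here.

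RPA, which coats single-stranded DNA, was the only role group with all its genes below 0, by small amounts. RPA1 was at 50.3 FPKM in the control and 46.3 FPKM with NICD1 (log2 fold change -0.063, interval -0.10 to -0.023). RPA2 was at 46.4 and 42.9 FPKM (-0.057) and RPA3 at 13.9 and 12.6 FPKM (-0.090), both with intervals that held 0. RPA1 stood at 3.62 times the level of RPA3 in A549-Vector and 3.69 times in A549-NICD1.

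Among the fork protection genes, CLSPN, the adaptor for checkpoint signalling at the fork, was at 32.7 FPKM in the control and 33.5 FPKM with NICD1 (log2 fold change 0.092, interval 0.055 to 0.13). TIMELESS and TIPIN, which form a complex, were at 29.2 and 27.4 FPKM and at 53.0 and 53.1 FPKM. WDHD1, which links the helicase to polymerase alpha, was at 16.3 and 15.8 FPKM. The intervals of these 3 genes held 0.

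**Figure D4:**
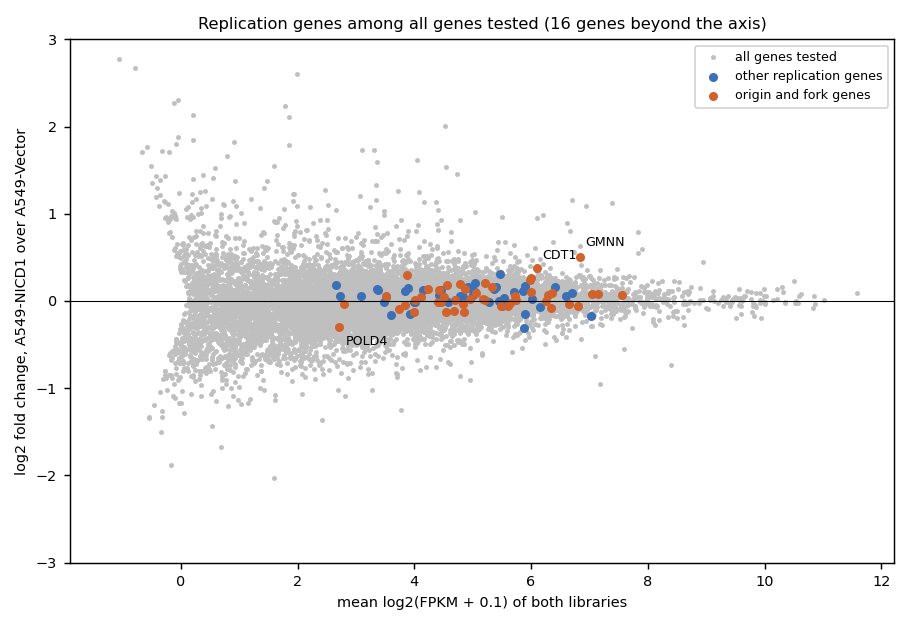
Log2 fold change of A549-NICD1 over A549-Vector against the mean log2 level of both libraries, for all genes tested, the other replication genes and the origin and fork genes. The 47 genes lie between -0.30 and 0.51 in the dense part of the cloud, and 16 genes, RFC4 among them, lie beyond the y axis, which ends at 3 in either direction.

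The fold changes were then set beside the letters of the promoter windows. The 19 genes with the exact E2F letters had a median log2 fold change of 0.070 and values from -0.13 to 0.38. The 21 without these letters had a median of 0.052 and values from -0.30 to 0.51. For TGGGAA, the 12 genes with the letters had a median of 0.043 and the 28 without one of 0.056. For CCAAT, the 26 genes with the letters had a median of 0.051 and the 14 without one of 0.098. Each of these sets held genes on both sides of 0.

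A list of 44 other replication genes was set beside the 47. It covers the kinase CDC7 and its partners, initiation factors, S-phase cyclins, clamp loaders, chromatin assembly, nucleotide supply, E2F factors, checkpoint kinases and proliferation markers. All 44 were tested, and 31 were above 0 (70.5%, beside 48.9% of all genes tested) and 13 below. With no scaling, 25 were above 0 and 19 below. Their median log2 fold change was 0.063 (0.060 without RFC4). Those at least 1.2-fold higher in A549-NICD1 were RFC4 and E2F4 (4.55% of the 44, beside 9.54% of all genes tested). The one at least 1.2-fold lower was MKI67 (2.27%, beside 13.1%). RFC4, a clamp loader subunit, was at 39.5 FPKM in the control and 4075 FPKM with NICD1, with log2 fold change 6.74. It was at rank 2097 of all genes in A549-Vector and rank 1 in A549-NICD1, where the overexpressed NOTCH1 was at rank 3. What made RFC4 differ this much was not tested. The other clamp loader subunits were at 51.4 and 52.9 FPKM (RFC1), 47.1 and 43.6 FPKM (RFC2), 57.2 and 61.8 FPKM (RFC3), and 40.1 and 42.5 FPKM (RFC5). Hence none of the 47 genes, and none of these 4 subunits, came near the difference of RFC4.

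Next to RFC4, the highest of the 44 were E2F4, a repressive member of its family, at 40.6 FPKM in the control and 48.2 FPKM with NICD1 (log2 fold change 0.30, interval 0.11 to 0.50), and CHTF8, of an alternative clamp loader, at 31.2 and 34.6 FPKM (0.20, interval 0.14 to 0.26). The 3 lowest were MKI67, TOP2A and DBF4. MKI67, the gene of the proliferation marker Ki-67, was at 66.4 and 51.4 FPKM (-0.31, interval -0.33 to -0.29). TOP2A, the topoisomerase of dividing cells, was at 140 and 120 FPKM (-0.17, interval -0.19 to -0.15). DBF4, the activator of CDC7, was at 12.96 and 11.2 FPKM (-0.16, interval -0.24 to -0.074), while CDC7 itself was at 29.04 and 31.3 FPKM (0.16, interval 0.11 to 0.22). E2F1 was at 28.1 and 28.2 FPKM, CCNE1 at 13.998 and 14.5 FPKM and CCNA2 at 57.3 and 59.5 FPKM. MKI67 and TOP2A were thus lower in the library in which GMNN, CDT1 and CDC6 were higher. In bulk RNA, a different share of cells in a phase of the cycle and a different amount of RNA per cell cannot be told apart.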

How the data were processed

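The libraries were made from polyA RNA with the NEBNext Ultra RNA kit. The submitters' processing notes name Bowtie2, HTSeq and hg38 without roles or versions. The authors deposited 1 value per gene and library, treated here as FPKM. Their unit and annotation are not given in the sources used here, and the unit was read from the values. Rows named by date numbers (27) were not used.

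The commonest ratio between the libraries, shared by 257 genes, gave the relative depth. The depth of A549-NICD1 was the largest at which at least 90% of the gene lengths of 400 genes came out whole (93.0%, against at most 44.0% at any larger depth). Whole reads were then found for 17176 of 17178 genes above 0, and for all 47 origin and fork genes, within 0.0001 reads beyond rounding. They are the smallest that fit, with gene lengths of at least 200 bases, so true reads may be a whole multiple and intervals are the widest. They were used for intervals only. The intervals treat each read as an independent draw, although without molecular identifiers PCR copies cannot be told from separate molecules, so they cover counting error only.

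The trimmed mean of log ratios left out 30% of ratios and 5% of levels at each end, and A549-NICD1 values were divided by the factor of 0.962. Genes with at least 1 FPKM in either library were tested. Role groups, the 44 other replication genes and the markers came from general knowledge, and members and lists were chosen with earlier results of these data known. The motifs were chosen after the values were seen. All 47 genes were named by role. Intervals were to be given for the 5 highest and 5 lowest of them, PCNA and MCM2 to MCM7, and were added for others after the values were seen. Of the 44, the 3 highest, the 3 lowest and the clamp loaders RFC1 to RFC5 were named by rule, and CDC7, E2F1, CCNE1 and CCNA2 after their values were seen. Gene positions came from GENCODE 29. Near-identical transcripts (at least 97% over 100 bases) were found with blastn 2.17.0. The other steps used Python 3.11.15, numpy 2.4.6, pandas 2.3.3 and scipy 1.17.1, and were tested on simulated reads. Other scalings, pseudocounts and filters on low values were tried.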

Additional observations from a re-analysis of the deposited data

How the results depend on the processing

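No paired analysis was possible because each group had 1 library. Across the 8 alternatives, the median log2 fold change of the 47 genes ran from -0.032, with no scaling of the deposited values, to 0.029, so its sign depends on the scaling. The number of genes at least 1.2-fold higher ran from 2 to 4 around the 3 reported, the number at least 1.2-fold lower stayed at 1, and none was 1.5-fold higher or lower under any alternative. The median of the 44 other replication genes ran from 0.0071 to 0.068. Of the 26 genes of the 47 with a counting interval off 0, none changed sign, against 10 of the other 21. Of the 44, those that changed sign were 6 of 17 with an interval that held 0 and 1 of 27 with an interval off 0, which was TK1 (0.056, and -0.00043 with no scaling). No scaling moved each value by about 0.056, and genes with an interval off 0 mostly lay farther from 0 than that. The contrast thus follows largely from how the sets were formed, and the intervals were not taken again under the other scalings. With no scaling, 25 of the 44 were above 0 and 19 below, and at least 32 of the 91 genes of both lists moved outside their main interval. The smallest reads that fit were fewest for POLD4 and POLE4 among the 47 genes, and their true reads may be a whole multiple. The gene lengths that gave these reads were 339 bases (POLD4) and 232 bases (POLE4). The longest transcripts have 1793 and 1248 bases in the same order. The single library per group limits every comparison.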
